A study of Homo sapiens with 3 samples.

Results

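The apoptosis regulators described here are 38 genes of the BCL2 family, the caspases, the apoptosome, the inhibitors of apoptosis and the death receptor pathway. They were chosen by symbol, and 56 probes on the array carried a RefSeq accession of 1 of them, out of 25764 named probes for 19735 genes. Their RNA levels were measured in Huh7 cells, a human hepatoma line, in 3 groups: untreated cells, cells given CA at 50 µM and cells given CA at 100 µM. CA is chlorogenic acid, a plant polyphenol, and treatment lasted 24 h. By the study's methods CA was dissolved in DMSO, and DMSO alone served as the untreated control, while the sample labels give that group no treatment. Each group was 1 sample on 1 one-colour Agilent array, so that the values have no replicate error and no test, and every difference below is a description of 3 arrays of 1 cell line. As the RNA came from whole cultures, fewer cells making an RNA and less RNA per cell cannot be told apart.

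Apoptosis runs through mitochondria or through death receptors. In the mitochondrial route, BH3-only proteins engage the pro-survival BCL2 proteins and free the pore-forming effectors, cytochrome c leaves the mitochondria and binds APAF1, and the assembled apoptosome switches on initiator and then executioner caspases. In the receptor route, ligands such as TRAIL assemble adaptors and initiator caspases at the membrane, with c-FLIP and the inhibitors of apoptosis as brakes. Much of this control lies in protein binding and cleavage, which an RNA array does not see.

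Signals were scaled to the 75th percentile of each array and are given as a percent of it, so that 100% is the level below which 75 of 100 gene spots lie. Between 70.4% and 71.1% of gene spots were well above background. A probe was measured when its signal was well above background on both arrays compared. On the array of CA 100 µM, 5.71% of gene spots lay in areas where dim probes were bright on that array alone, against 0.139% and 0.0881% on the other arrays. Among the members, 7 probes had a spot in such an area, and 3 of them (for BCL2L13, BIRC2 and CYCS) had no other spot. Of 12 hepatocyte markers, 10 had a measured probe in untreated cells and 11 at each dose. ALB, AFP and TTR were among them on every array, whereas the probe of the hepatocyte factor HNF4A was above background at CA 50 µM only. The marker added at CA 100 µM was TF, which read 1047% there. Its probe had no unflagged spot on the other arrays, so no level was read on them. All 5 immune markers also passed the background flag, and their summed signal was 113% untreated, 132% at CA 50 µM and 107% at CA 100 µM. For 3 of 4 endothelial markers the probe passed on every array, with sums of 75.4%, 90.4% and 83.7%. Fibroblast markers passed for 3 of 4, 3 of 4 and 4 of 4, with sums of 16.96%, 15.9% and 21.2%. The fourth at CA 100 µM was COL1A1, which read 0.247%, 0.271% and 4.14% and whose spot there was in a disturbed area. The part of such cells or of dim background signal in the results was not tested.

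Nearly the whole set was read above background in Huh7 cells, and with CA most of it stayed close to the untreated level. The background flag alone does not show expression of a dim member, since all 5 immune markers passed it too. In untreated cells HRK read 2.10%, below the immune marker CD3E at 2.66%. Of the 38 genes, 37 had a probe above background on all 3 arrays, 52 of 56 probes in all, and BCL2 did not. On the whole array, 22114 of 34110 probes with a usable spot were above background on all 3 arrays. By gene, 14700 of 19735 named genes had a probe measured at CA 50 µM against untreated. Of 50 apoptosis genes outside the set, 41 had a probe above background in untreated cells and 42 at each dose. The high share in the set therefore depends on which genes it holds. At CA 50 µM, 1 of the 52 probes was at least 1.5-fold higher than in untreated cells (BCL2L1), where 5.05% of all 22471 measured probes were, and 0 were at least 1.5-fold lower, against 2.17% of all. At CA 100 µM, 0 were at least 1.5-fold higher, against 2.51% of all 22267 measured probes, and 1 was at least 1.5-fold lower (a probe of CFLAR), against 1.80% of all. Between the doses, 0 of 52 differed by 1.5-fold, against 3.62% of all. At a 2-fold limit the member count was 0 in each of the 3 comparisons, beside 1.07%, 0.894% and 0.855% of all probes.

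The spread of the members around the untreated level was somewhat narrower than that of the array as a whole, a difference that was not tested. The members held a smaller share of dim probes than the array, and dim probes scattered more. The counts past 1.5-fold above and the spreads here therefore do not compare probes of like signal. At CA 50 µM, 43 of 52 probes (82.7%) lay within 1.25-fold of untreated, compared with 74.2% of all probes. At CA 100 µM it was 48 of 52 (92.3%), compared with 83.9%. The median log2 ratio was 0.01 at CA 50 µM and 0.02 at CA 100 µM, where all probes had medians of -0.01 and -0.02. The SD of the log2 ratios over the members was 0.25 and 0.17, and over all probes 0.33 and 0.28. For 26 of the 37 measured genes, every measured probe stayed within 1.25-fold of untreated at both doses. Both comparisons use the same untreated array, so that they do not vary independently of each other.

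**Figure D1:**
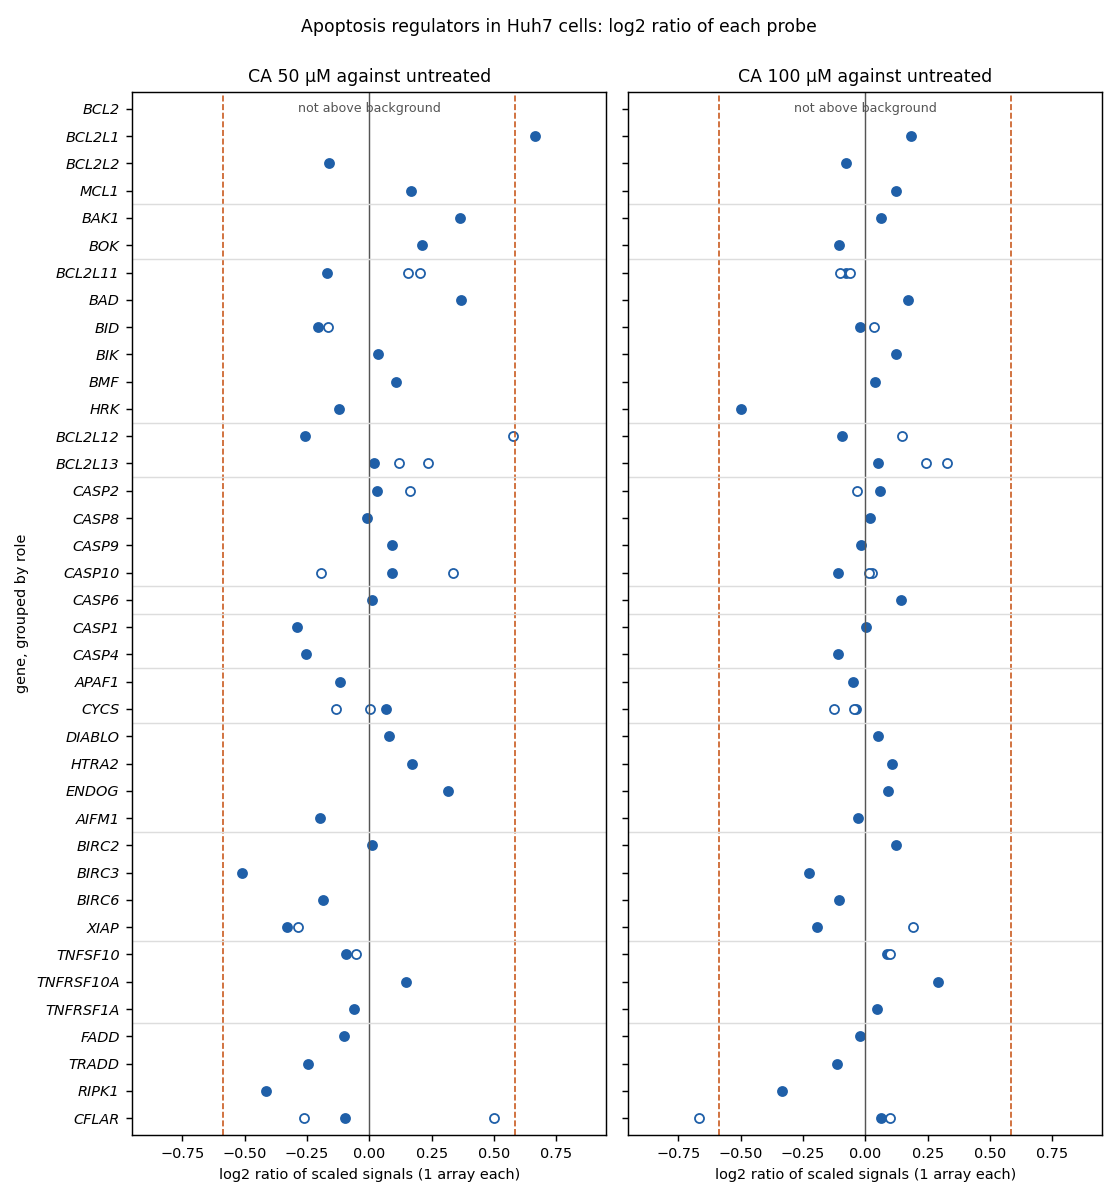
Log2 ratio of the scaled signal against untreated cells for each measured probe of the apoptosis regulators, at CA 50 µM (left) and CA 100 µM (right), with 1 array per group. Rows are genes grouped by role, filled points are the brightest probe of a gene, open points its other probes, and dashed lines mark 1.5-fold. At 50 µM only BCL2L1 lies outside the lines and at 100 µM only 1 probe of CFLAR does.

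The ratios of dim probes scattered more than those of bright ones over the whole array. All measured probes were therefore split into 5 equal classes of mean signal, and each member was set beside the middle 90% of its own class, a reading added after the values had been seen. At CA 50 µM, 2 of 52 member probes (3.85%) lay outside, where 10.0% of all probes do by construction. These were BIRC3 and RIPK1, both below. At CA 100 µM, 2 of 52 (3.85%, beside 10.0%) lay outside, namely RIPK1 and a probe of CFLAR, again both below. BCL2L1 at CA 50 µM did not count among them, because 5% of probes of like signal were higher than 0.68 on the log2 ratio scale. The class medians at CA 50 µM ran from 0.06 in the second dimmest class to -0.10 in the brightest, so that a bright member slightly below untreated was where most bright probes were.

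**Figure D2:**
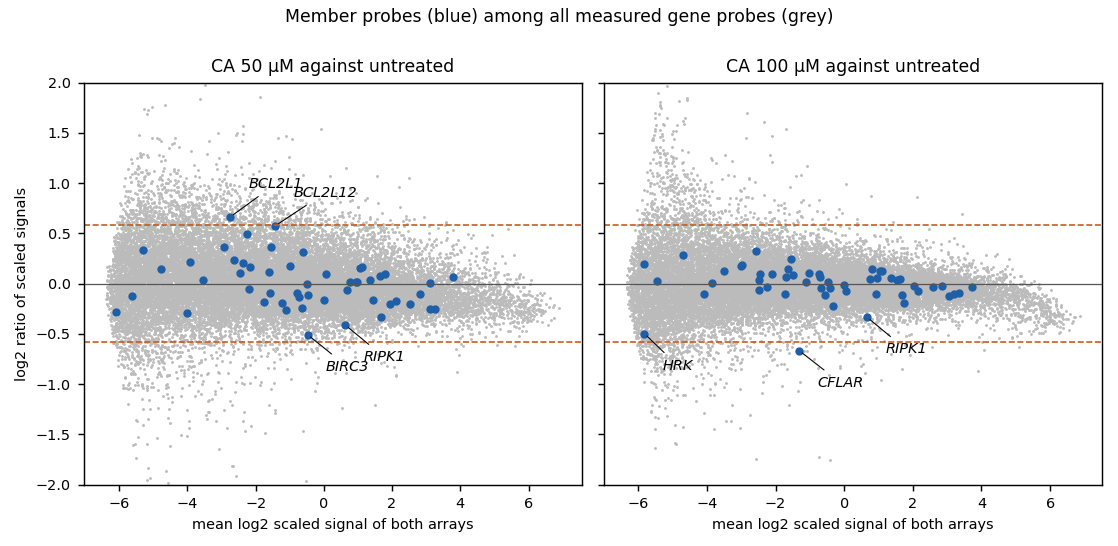
Log2 ratio against untreated plotted over the mean log2 scaled signal of both arrays, for all measured gene probes (grey, 22471 at CA 50 µM on the left and 22267 at CA 100 µM on the right) and the member probes (blue). Dashed lines mark 1.5-fold, and the members named are described in the text. The grey cloud widens toward dim signals, RIPK1 lies within its lower part at both doses, and grey points beyond a log2 ratio of 2 or -2 are not drawn.

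Pro-survival BCL2 proteins hold the pore formers in check. BCL2 itself was not well above background on any array with either of its probes, 1 of which was printed 10 times, and no ratio was formed. BCL2L1, which encodes BCL-XL, had a level of 11.9% in untreated cells, 18.9% at CA 50 µM and 13.5% at CA 100 µM. It was highest at CA 50 µM, with the other arrays close together. Its probe was printed 10 times per array, which gives the error within an array. The log2 ratio at CA 50 µM was 0.67 ± 0.11 (SD over 10 spots of 1 array pair), equal to 1.59-fold, and the single spots ranged from 0.48 to 0.85. The ratio at CA 100 µM was 0.18 ± 0.13 with spots from 0.04 to 0.38 (1 of the 10 in a disturbed area), and from CA 50 µM to CA 100 µM the level was lower by a log2 ratio of -0.48 ± 0.10. The lowest of the 10 spot values at CA 50 µM was above the highest on the untreated array and on the array of CA 100 µM. This spread covers printing and scanning on 1 slide, not culture, RNA extraction or labelling. With normexp background correction the ratio at CA 50 µM was 0.44, under 1.5-fold. MCL1, a short-lived member of the same group, was at 206%, 231% and 225% in untreated cells, CA 50 µM and CA 100 µM, with log2 ratios of 0.17 and 0.12. BCL2L2, which encodes BCL-w, was at 106%, 95.1% and 101%. Thus, of the 3 measured pro-survival genes 1 passed 1.5-fold, at 1 dose.

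**Figure D3:**
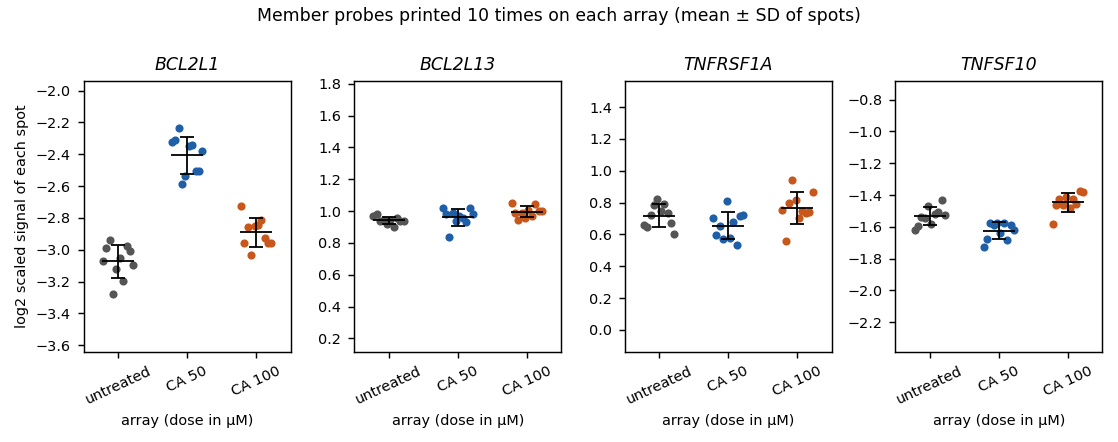
Log2 scaled signal of each of the 10 spots of the member probes printed 10 times and above background, on the arrays of untreated cells, CA 50 µM and CA 100 µM. Points are spots of 1 array, and the bar and whiskers are their mean ± SD. The spots of BCL2L1 at CA 50 µM lie above all its other spots, whereas those of BCL2L13 and TNFRSF1A overlap between arrays.

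The effectors BAK1 and BOK form the pores in the outer mitochondrial membrane. BAK1 was at 30.05% in untreated cells, 38.6% at CA 50 µM and 31.4% at CA 100 µM, a log2 ratio of 0.36 and then 0.06. BOK was a dim probe at 6.05%, 7.01% and 5.62%, with ratios of 0.21 and -0.11, and its sign at CA 50 µM turned with normexp background correction (-0.05). Both were higher at CA 50 µM than at CA 100 µM, and neither reached 1.5-fold.

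BH3-only proteins carry the death signal to the BCL2 family. Of 9 measured probes for 6 of these genes, 0 passed 1.5-fold at either dose, and 8 lay within 1.25-fold at each. BAD, which binds BCL-XL when unphosphorylated, had 11.7%, 15.0% and 13.1% in untreated, CA 50 µM and CA 100 µM cells, with log2 ratios of 0.37 and 0.17. HRK was near the floor of the array at 2.10%, 1.93% and 1.49%. The ratio of HRK at CA 100 µM was -0.50, and it ran from -0.60 to -0.21 over the alternatives, past 1.5-fold in 2 of them. For BCL2L11, the gene of BIM, the 3 probes gave -0.17, 0.16 and 0.20 at CA 50 µM and between -0.10 and -0.06 at CA 100 µM. The brightest of them was at 456%, 405% and 432%, and its ratio at CA 100 µM turned from -0.08 to 0.11 with normexp. Both probes of BID, whose protein links the receptor route to mitochondria once cut, were slightly lower at CA 50 µM (-0.21 and -0.17) and within 0.04 of untreated at CA 100 µM. BIK had ratios of 0.03 and 0.12, the first of which changed sign in 5 of 11 alternatives (lowest -0.10). BMF had 0.11 and 0.04 with its brighter probe, the second of which changed sign in 1 alternative (-0.06). The second probe of BMF was not well above background on any array.

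More distant BCL2 relatives were read by several probes. BCL2L12 had a bright probe at 1053%, 881% and 987%, lower than untreated at CA 50 µM by a log2 ratio of -0.26, and a dimmer one at 30.6%, 45.7% and 33.9%, higher by 0.58. The dimmer probe was the member that came closest to 1.5-fold without reaching it, and the 2 probes pointed in opposite directions. BCL2L13, an outer mitochondrial membrane protein that also acts in mitophagy, gave 192%, 195% and 199% with the probe printed 10 times. Its log2 ratios were 0.02 ± 0.05 and 0.05 ± 0.03 (SD over 10 spots). Both single-spot probes of BCL2L13 were above this, at 0.12 and 0.23 at CA 50 µM and 0.24 and 0.33 at CA 100 µM, and the one with 0.24 lay in a disturbed area of the CA 100 µM array.

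Initiator caspases start the proteolytic cascade. CASP8, which is activated at death receptors, was at 71.3%, 70.8% and 72.1% in untreated, CA 50 µM and CA 100 µM cells, and was thus within 0.02 of untreated on the log2 scale at both doses. CASP9, the caspase of the apoptosome, was at 101%, 107% and 99.2%. CASP2 had ratios of 0.03 and 0.16 with its 2 probes at CA 50 µM and 0.06 and -0.03 at CA 100 µM. CASP10, a relative of CASP8, was measured by 3 probes that gave 0.09, -0.20 and 0.34 at CA 50 µM and -0.11, 0.01 and 0.03 at CA 100 µM. The probe with 0.34 was dim, at 2.25%, 2.84% and 2.29% in untreated, CA 50 µM and CA 100 µM cells. Another probe of CASP10 was well above background only at CA 100 µM. It read 1.26% there, 1.07-fold its own dim signal of 1.18% in untreated cells, and no rise is read from it. All 7 initiator caspase probes were within 1.25-fold of untreated at CA 100 µM, and 6 were at CA 50 µM.

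CASP6, an executioner caspase, was at 168%, 169% and 185%, with log2 ratios of 0.01 and 0.14. The inflammatory caspases CASP1 and CASP4, which cut cytokine precursors and gasdermin D, were both lower at CA 50 µM. CASP1 was a dim probe with 6.87%, 5.62% and 6.89%, so that its ratio of -0.29 at CA 50 µM was followed by 0.00 at CA 100 µM. CASP4 was at 951%, 796% and 882%, with ratios of -0.26 and -0.11. Bright probes had a median of -0.10 at CA 50 µM, and CASP4 lay within the middle 90% of that class.

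The apoptosome genes lay close to untreated. APAF1, the scaffold, was at 75.5%, 69.6% and 73.0%. CYCS, the gene of cytochrome c, had its brightest probe at 1350.2%, 1416% and 1317%, and its 3 probes gave log2 ratios between -0.13 and 0.07 at CA 50 µM and between -0.13 and -0.04 at CA 100 µM. CYCS has processed pseudogenes of near-identical sequence, so that its probes may read more than 1 locus. Other proteins that leave mitochondria in dying cells were also within 1.25-fold of untreated at both doses. DIABLO and HTRA2, which relieve the block by inhibitors of apoptosis, had ratios of 0.08 and 0.05 (DIABLO) and 0.17 and 0.11 (HTRA2). The nuclease ENDOG was at 58.5%, 72.9% and 62.4%, a ratio of 0.32 at CA 50 µM and 0.09 at CA 100 µM. AIFM1, a flavoprotein, was at 611%, 532% and 598%, a ratio of -0.20 and then -0.03.

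Of the 5 probes for 4 inhibitors of apoptosis (2 of them for XIAP), 1 was above untreated at CA 50 µM and 4 below, where 48.2% of all measured probes were above. Their median log2 ratio was -0.29, and over the alternatives the median ran from -0.34 to -0.22. None of the 5 passed 1.5-fold. Other roles leaned either way at CA 50 µM. Above untreated were 1 of 6 probes for receptor adaptors and regulators and 0 of 2 for inflammatory caspases. The counts were 5 of 7 for initiator caspases and 4 of 5 for the more distant BCL2 relatives. BIRC3, a ubiquitin ligase of the TNF receptor complex and a target gene of NF-kB, was at 85.9% in untreated cells, 60.4% at CA 50 µM and 73.5% at CA 100 µM. It was lowest at CA 50 µM, with a log2 ratio of -0.51 there, and at CA 100 µM the ratio was -0.22, inside the middle 90% of its signal class. XIAP, which blocks caspases directly, was at 357%, 284% and 312% with its brighter probe, ratios of -0.33 and -0.19. The dim probe of XIAP had 1.63%, 1.34% and 1.86%, and it was below untreated at CA 50 µM (-0.29) but above it at CA 100 µM (0.19), a sign that turned with normexp (-0.21). BIRC6 had ratios of -0.18 and -0.11. BIRC2, the close relative of BIRC3, was the exception at CA 50 µM with 197%, 199% and 215%, ratios of 0.01 and 0.12. The first of these changed sign in some alternatives (lowest -0.05), and its only spot at CA 100 µM lay in a disturbed area. All 5 probes were higher at CA 100 µM than at CA 50 µM, by a median of 0.14, where 47.8% of all measured probes and 59.6% of the member probes were higher. The values at CA 50 µM in both of these comparisons come from the same array.

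The genes of a death ligand and its kind of receptors lay close to untreated. TNFSF10, the gene of TRAIL, was at 34.6%, 32.4% and 36.7% with the probe printed 10 times. Its log2 ratios were -0.09 ± 0.05 at CA 50 µM and 0.09 ± 0.04 at CA 100 µM (SD over 10 spots), and its other probe gave -0.06 and 0.10. All 10 spots of TNFSF10 were below untreated at CA 50 µM and all 10 above it at CA 100 µM, while its ratios lay within the middle 90% of its signal class. TNFRSF1A, the main receptor of TNF, was at 165%, 158% and 170%, ratios of -0.06 ± 0.11 and 0.05 ± 0.11. Both ratios were smaller than the SD of its spots. On the array of CA 100 µM, 2 of the 10 spots of TNFSF10 and 2 of TNFRSF1A lay in a disturbed area. TNFRSF10A, a receptor of TRAIL, was dim at 3.47%, 3.85% and 4.24%, with ratios of 0.15 and 0.29 and a background flag on the untreated array.

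Among the receptor adaptors and kinases, RIPK1 was the only one of the 37 measured members outside the middle 90% of its signal class at both doses. This kinase passes TNF receptor signals to survival or death. Its level was 179% in untreated cells, 134% at CA 50 µM and 142% at CA 100 µM, with both treated arrays lower. The log2 ratios were -0.41 and -0.34, below the lower 5% limits of its class at -0.37 and -0.27. The alternatives gave between -0.46 and -0.38 at CA 50 µM and between -0.36 and -0.30 at CA 100 µM. RIPK1 had 1 probe with 1 spot, and both ratios rest on the single untreated array. TRADD, which recruits RIPK1 to the TNF receptor, was at 70.1%, 59.1% and 64.8%, ratios of -0.25 and -0.11. FADD, the adaptor that recruits CASP8, was at 729%, 679% and 717%, ratios of -0.10 and -0.02.

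CFLAR encodes c-FLIP, the catalytically inactive relative of CASP8 that is made in several splice forms. Its 3 probes disagreed. Probe A_23_P156807 read 50.9% in untreated cells, 42.4% at CA 50 µM and 32.0% at CA 100 µM, a stepwise lower level with log2 ratios of -0.26 and -0.67. This was 0.629 of the untreated level at CA 100 µM, under the lower 5% limit of -0.30 of its class, and the alternatives gave between -0.69 and -0.56, the weakest of them (normexp) under 1.5-fold. Probe A_23_P209394 read 60.2%, 56.3% and 62.9%, ratios of -0.10 and 0.06. Probe A_24_P120115 read 17.6%, 24.9% and 18.9%, ratios of 0.50 and 0.10. Thus the lower value at CA 100 µM was seen with 1 of 3 probes, and at CA 50 µM the probes were spread on both sides of untreated. The splice forms read by each probe were not analysed here.

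**Figure D4:**
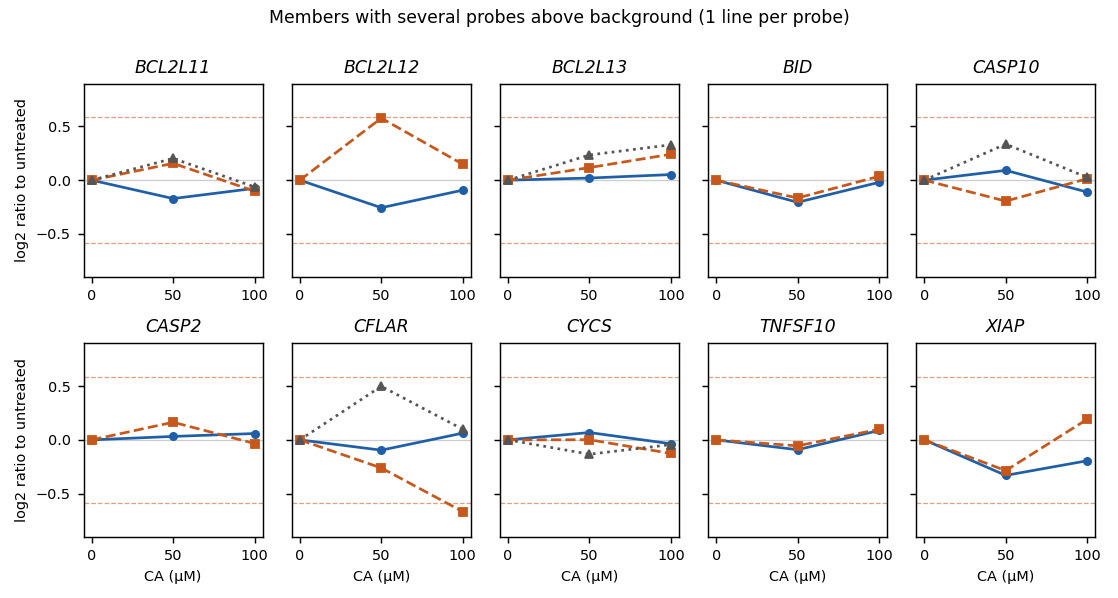
Log2 ratio to untreated at 0, 50 and 100 µM CA for the 10 members with several probes above background on all 3 arrays, 1 line per probe (solid, the brightest in untreated cells, then dashed and dotted). Dashed horizontal lines mark 1.5-fold. The probes of CFLAR and BCL2L12 lie on both sides of 0 at 50 µM, while those of BID and TNFSF10 run close together.

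The probes of a gene often pointed in different directions, in the members and elsewhere on the array. Of the 10 members with several measured probes, all probes pointed the same way for 5 at CA 50 µM and for 4 at CA 100 µM. The median gap between the highest and the lowest probe of a gene was 0.21 and 0.11 on the log2 scale. Over all 3216 genes with several probes, the gap was 0.25 and 0.20, and probes pointed the same way for 50.3% and 47.7%.

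Other genes of apoptosis, which are no members of the set, were taken from a list of 50. At CA 50 µM, 4 of their 53 measured probes were at least 1.5-fold higher and 2 lower, against 5.05% and 2.17% of all probes. The counts at CA 100 µM were 1 higher and 1 lower of 54, against 2.51% and 1.80%. Only 1 probe was past 1.5-fold in the same direction at both doses, a dim probe of PARP1, the DNA repair enzyme cut by executioner caspases. It read 10.3% in untreated cells, 16.7% at CA 50 µM and 21.2% at CA 100 µM, log2 ratios of 0.70 and 1.05, but its spot lay in a disturbed area at CA 100 µM and the other PARP1 probe had ratios of 0.09 and 0.00.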

How the data were processed

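RNA of each of the 3 groups was turned into Cy3-labelled cRNA by the authors and put on 1 array each of 1 slide. The deposited spot files hold intensity values from Feature Extraction 11.0.1.1, background-subtracted and detrended within each array but not scaled between arrays. The authors also deposited a log2 table whose method was not stated and whose columns share their quartiles. It served as an alternative.

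Here the log2 processed signal was scaled by subtracting the log2 of the array's 75th percentile, taken over unflagged gene spots (429 flagged gene spots were dropped on the untreated array, 569 at CA 50 µM and 596 at CA 100 µM, none of a member). Repeated spots were averaged, and a probe counted as above background if 50% or more of them did. A disturbed area was a block of 17 by 7 spots with 5 or more spots, making up 25% or more of its dim probes, that were 4-fold brighter on 1 array alone. For a probe above background on 1 array only, the fold was taken against the higher of its own dim signal and the lowest signal above background. Probes were named by RefSeq accession through a gene table of assembly GRCh38.p14 (25764 of 34127 probes, 75.5%). No coordinates or sequences are given, since the array was designed on another build and probe sequences were not used here.

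No test was possible with 1 array per group. Limits of 1.5-fold and 2-fold only describe size. Within-array error came from probes printed several times (median SD of a log2 ratio 0.06, and 0.13 among the dimmest of 4 classes of them). Alternatives were quantile, cyclic loess and median scaling, normexp with an offset of 50 on median signals (mean signals were not used here), the deposited table, 2 filters on dim probes, leaving out flagged, saturated or disturbed spots, and 1 probe per gene (for the ratio of a single gene, the mean over its probes). Each measured member was named with its levels or its ratios. Members with several measured probes were given by the ratio of each probe or by their range. Of the other apoptosis genes, those past 1.5-fold in 1 direction at both doses were named. Members, lists and limits were chosen with earlier results of these data known. Only the counting of probes past a fold limit was tested on simulated data, with planted changes larger than those of the members. The other steps were not tested in this way. Python 3.11.15, pandas 2.3.3, numpy 2.4.6, R 4.3.3 and limma 3.58.1 were used.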

Additional observations from a re-analysis of the deposited data

How the results depend on the processing

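The number of arrays, 1 per group on 1 slide, limits every value here: no replicate could be left out and no slide block fitted. No paired analysis was possible because each group holds 1 array. Over 11 alternatives, the median log2 ratio of the members ran from -0.04 to 0.01 at CA 50 µM, below 0 in 6 of them, from -0.03 to 0.04 at CA 100 µM, below 0 in 2, and from 0.05 to 0.11 between the doses, so that the sign of the first 2 depended on the processing. Counts at 1.5-fold changed by 1 gene or probe. At CA 50 µM, the 1 higher probe (BCL2L1) became 0 with normexp, and 2 without the filter on dim probes, which added the dim probe of BMF. At CA 100 µM, the 1 lower probe (CFLAR) became 2 with quantile normalization and 2 with the deposited table, where HRK was added, and 0 with normexp and 0 with 1 probe per gene, where CFLAR was read by another probe. Between the doses, 1 probe passed without the filter on dim probes, against 0. Causes of the changes with normexp were not tested. Leaving out disturbed areas left these counts as they were. For single genes the last alternative took the mean of all measured probes in place of the brightest. It alone turned the sign of 4 of 37 genes at CA 50 µM (BCL2L11, BCL2L12, CFLAR and CYCS) and of 2 at CA 100 µM (BCL2L12 and CFLAR). The other alternatives turned the sign of 6 genes at CA 50 µM (BCL2L13, BIK, BIRC2, BOK, CASP2 and CASP6) and of 8 at CA 100 µM (AIFM1, BCL2L11, BID, BMF, CASP1, CASP8, CYCS and FADD), and 27 kept it at each dose under all of them.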

Other observations

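Among the 50 other apoptosis genes, the measured probes past 1.5-fold at 1 dose were few enough to name, which was done after their values had been seen. Both probes of PEA15, whose death effector domain protein binds FADD and CASP8, were higher at CA 50 µM. They read 17.93%, 31.3% and 23.3% of the 75th percentile in untreated, CA 50 µM and CA 100 µM cells and 11.1%, 20.5% and 16.5%, log2 ratios of 0.80 and 0.88 at CA 50 µM and 0.38 and 0.57 at CA 100 µM. ACIN1, a nuclear protein cut during chromatin condensation, read 50.5%, 83.8% and 59.5%, ratios of 0.73 and 0.24. A bright probe of BAG4, a cofactor of HSP70 that binds TNFRSF1A, read 226%, 130.3% and 177%, ratios of -0.80 and -0.36, whereas its other probe gave 0.10 and 0.10. MLKL, the effector of necroptosis, was dim at 3.32%, 2.07% and 3.81%, with -0.69 at CA 50 µM and 0.20 at CA 100 µM. BCL2L15 was lower at CA 100 µM with both probes, -0.61 and -0.38, the first past 1.5-fold and not above background at CA 50 µM, the second with its spot in a disturbed area. The first was dim, at 2.67% in untreated cells, and the second was above untreated at CA 50 µM, with a ratio of 0.15. The dim probe of BIRC7 was above background at both doses but not in untreated cells, so no ratio to untreated was formed. It read 0.829%, 1.55% and 2.31% in untreated, CA 50 µM and CA 100 µM cells.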
